A study of Mus musculus with 7 samples.

Results

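Binding of CTCF and cohesin was mapped by ChIP-seq, in which DNA crosslinked to a protein is precipitated with an antibody and sequenced, in whole liver of male CD-1 mice, strain Crl:CD1(ICR), at 8 weeks of age. An antibody to CTCF was used in 4 libraries and an antibody to Rad21, a subunit of cohesin, in 3 libraries. The mice carried no transgene and received no treatment that the labels name, and nuclei of all liver cell types were used. The peak lists used here were made from merged libraries of each factor, so no value per mouse underlies a peak and no spread between mice could be given.

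The regions described here are CTCF peaks that lay outside the authors' classification, far from promoters, and yet overlapped a peak of Rad21. They are called unclassed cohesin-bound peaks below. They were chosen by measured values: an autosomal CTCF peak qualified if it was absent from the list of classified CTCF sites, shared at least 1 bp with a Rad21 peak and had its summit over 1 kb from every protein-coding transcription start. Of 76683 CTCF peaks in all, 74980 lay on the 19 autosomes, 23777 of those were unclassified, 8694 of those overlapped Rad21 and 6989 of those were distal. The 6989 regions were 9.11% of all CTCF peaks and 33.7% (95% Wilson interval 33.0 to 34.3) of the 20759 distal unclassified autosomal peaks. Per autosome they numbered between 237 and 510. They were sparsest on chromosome 14, at 2.08 per Mb, and densest on chromosome 19, at 3.86 per Mb.

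CTCF is a zinc finger protein that binds a long, directional DNA motif. Cohesin is a ring-shaped complex that holds chromatin together and is thought to extrude loops until it meets bound CTCF, so that the strongest CTCF sites usually carry cohesin. In liver, cohesin is also found at enhancers without CTCF, beside hepatocyte regulators such as forkhead (FOXA), C/EBP, HNF4 and nuclear receptor proteins. The question put to these regions was therefore which of the established kinds of site their sequence and surroundings were most like.

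The DNA under individual peaks is shown for regions that were picked by whether they held a CTCF motif. Each run below is the 201 bp centred on a CTCF summit, read 5′ to 3′ from the forward strand of build mm9. Capitals in the first 3 mark the 19 bp match to a CTCF motif that was learnt from strong classified sites. The windows were the 3 with the highest Rad21 score among regions with a motif, over 1 kb from a classified site, off exons, with at least 20 CTCF fragments and with a Rad21 peak of their own. Those added conditions were chosen after values had been seen.
Rbfox2 intron, chr15:77057355-77057555: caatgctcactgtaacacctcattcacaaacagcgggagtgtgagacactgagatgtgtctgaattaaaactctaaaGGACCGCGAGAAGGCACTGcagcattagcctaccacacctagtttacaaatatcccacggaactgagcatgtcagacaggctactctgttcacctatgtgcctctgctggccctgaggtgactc
Upstream of Slc9a3r2, chr17:24791037-24791237: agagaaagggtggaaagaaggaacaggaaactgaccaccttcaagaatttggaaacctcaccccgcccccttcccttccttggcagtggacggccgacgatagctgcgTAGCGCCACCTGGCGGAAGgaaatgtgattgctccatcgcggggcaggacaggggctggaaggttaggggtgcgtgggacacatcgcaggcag
Nearest start Klf4, chr4:55490827-55491027: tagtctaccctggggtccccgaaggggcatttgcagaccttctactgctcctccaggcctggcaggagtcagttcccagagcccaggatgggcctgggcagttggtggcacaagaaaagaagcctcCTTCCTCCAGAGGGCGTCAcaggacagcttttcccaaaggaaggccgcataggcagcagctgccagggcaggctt

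The match upstream of Slc9a3r2, a scaffold protein of membrane transporters, was on the reverse strand and read CTTCCGCCAGGTGGCGCTA. The match near Klf4, a zinc finger transcription factor, read CTTCCTCCAGAGGGCGTCA, and that inside Rbfox2, an RNA-binding regulator of splicing, read GGACCGCGAGAAGGCACTG. Their motif scores were 18.3, 15 and 11, against a limit of 9.57 that 5% of the flanking windows used to set it exceeded. The Slc9a3r2 score lay between the median and the upper quartile (16.4 and 18.6) of the distal other CAC sites with a motif, which are classified CTCF sites with cohesin that anchor no domain or predicted loop, and the Rbfox2 score was the nearest of the 3 to the limit.

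The next 4 windows were chosen in the same way from regions without a CTCF motif. Capitals mark 1 of 6 liver motifs (forkhead, C/EBP, HNF4, HNF1, nuclear receptor, NF1), whose letters are given with the motif counts. Matches to other motifs were left in lower case, and so was an NF1 match in the Slc9a3r2 window above. The last window held none of the 6 and is shown as the strongest region with neither kind of motif.
Nearest start Plekha5, forkhead, chr6:140229557-140229757: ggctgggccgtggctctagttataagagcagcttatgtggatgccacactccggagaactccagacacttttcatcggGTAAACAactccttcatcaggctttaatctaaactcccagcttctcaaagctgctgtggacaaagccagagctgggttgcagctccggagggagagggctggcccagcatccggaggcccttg
Nearest start Ppp1r3c, nuclear receptor and NF1, chr19:36779286-36779486: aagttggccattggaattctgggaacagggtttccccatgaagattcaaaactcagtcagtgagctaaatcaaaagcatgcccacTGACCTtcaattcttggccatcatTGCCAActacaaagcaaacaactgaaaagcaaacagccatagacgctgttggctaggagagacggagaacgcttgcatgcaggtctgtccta
Nearest start Ctgf, NF1, chr10:24254893-24255093: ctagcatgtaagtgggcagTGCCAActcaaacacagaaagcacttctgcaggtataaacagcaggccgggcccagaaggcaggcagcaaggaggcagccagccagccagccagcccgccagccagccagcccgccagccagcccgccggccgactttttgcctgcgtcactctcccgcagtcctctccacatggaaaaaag
Upstream of Igfbp2, neither, chr1:72855902-72856102: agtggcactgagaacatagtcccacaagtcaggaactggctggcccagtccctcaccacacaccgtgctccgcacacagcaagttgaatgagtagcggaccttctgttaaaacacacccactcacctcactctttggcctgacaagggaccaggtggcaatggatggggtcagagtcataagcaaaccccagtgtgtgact

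These windows lay between genes, with 135 Rad21 and 34 CTCF fragments at the Plekha5 region, 124 and 22 near Ppp1r3c, 96 and 38 near Ctgf, and 135 and 25 near Igfbp2. Ppp1r3c directs a phosphatase to glycogen, Ctgf encodes connective tissue growth factor and Igfbp2 a secreted binder of insulin-like growth factors. The windows with a CTCF motif held more CTCF: 54 fragments inside Rbfox2, 62 near Slc9a3r2 and 64 near Klf4. Their Rad21 fragments numbered 145, 124 and 76. Across the whole set the median was 32 CTCF fragments with and 28 without a CTCF motif. A fragment count here is the number of fragments piled over the summit, recovered from the deposited fold and p-value of each peak.

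CTCF was weak across the set. The CTCF score, which is 10 times the −log10 q-value of the peak, had a median of 68 and ran from 17 to 539. At the summit lay a median of 28 CTCF fragments (quartiles 24 and 35) over a local background of 6.51. Distal unclassified peaks without Rad21, 13770 in number, had the same median of 28 fragments and a score of 74. The 18012 distal other CAC sites had 121 fragments and a score of 851. Of the unclassed cohesin-bound peaks 720 (10.3%) scored above 129, the lowest score among the other CAC sites compared here. These strengths follow from the selection and were not tested.

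Rad21 spanned a wider range. The Rad21 score had a median of 96 and ran from 19 to 5891, with 34 fragments at the summit (quartiles 26 and 47), against 52 at other CAC sites and 28 at the 13246 distal Rad21 peaks without CTCF. A Rad21 score of at least 100 was reached by 3369 regions (48.2%), of at least 500 by 92 and of at least 1000 by 14. Rad21 fragments outnumbered CTCF fragments at 4463 regions (63.9%), and at 7.63% of other CAC sites. The ratio of Rad21 to CTCF fragments had a median of 1.19 (quartiles 0.897 and 1.61), against 0.467 at other CAC sites. It was at least 2 at 913 regions (13.1%) and at most 0.5 at 86 (1.23%), whereas 55% of other CAC sites lay at or under 0.5. The libraries of the factors differed in antibody and number, so a ratio of 1 does not stand for equal occupancy and only its order between regions can be read.

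**Figure D1:**
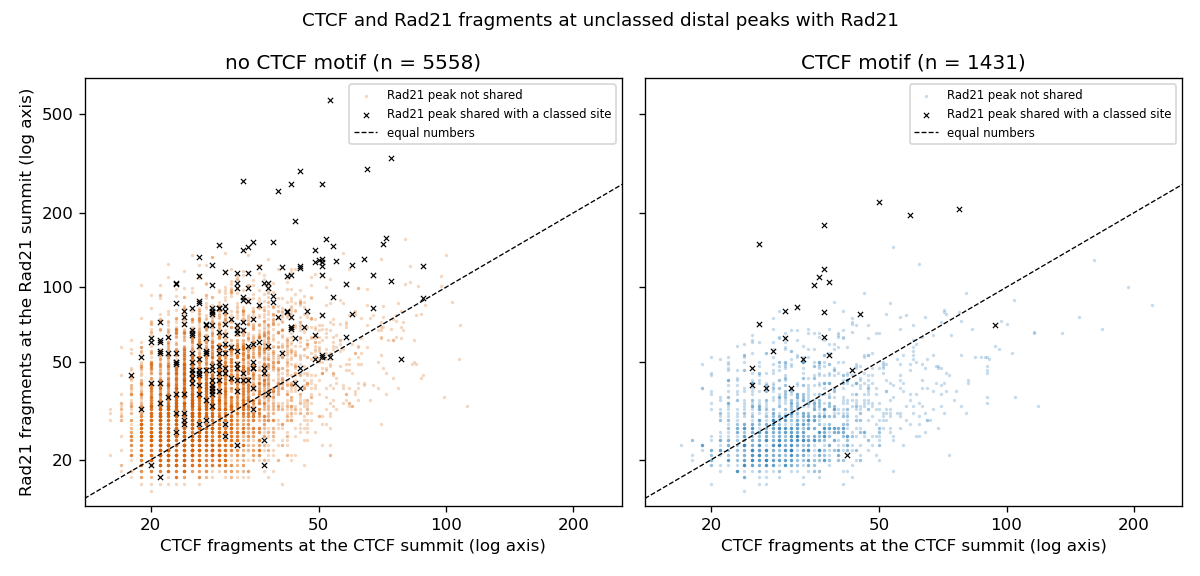
CTCF fragments at the CTCF summit against Rad21 fragments at the Rad21 summit (log axes), 1 point per region, for the 5558 regions without and the 1431 with a CTCF motif. The dashed line marks equal numbers, crosses mark the 238 regions whose Rad21 peak also covers a classified CTCF site, and points without a motif sit mostly above the line (median ratio 1.28) and points with a motif mostly below it (0.875).

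The summits of the factors did not always coincide. The distance between them had a median of 72 bp (quartiles 31 and 153), against 30 bp at other CAC sites. It was within 50 bp at 2673 regions (38.2%, against 71.9% of other CAC sites) and over 250 bp at 884 (12.6%, against 3.19%). The shared stretch had a median of 225 bp, and 153 regions shared under 50 bp with Rad21. Just outside the overlap limit, 110 peaks without Rad21 lay under 50 bp from a Rad21 peak. They had a median of 26 CTCF fragments, and the 153 regions just inside had 27.

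At the limit of distance from transcription starts, a peak with 41 CTCF and 22 Rad21 fragments near Git2 lay 1002 bp from a start and a peak with 38 and 57 fragments near 2810459M11Rik lay 1003 bp away, and both qualified. A peak near Sorbs2 at 1000 bp (25 and 40 fragments) and a peak near Lrch1 at 993 bp (93 and 134 fragments) did not.

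The sequence of the regions was not used to choose them. The share of 201 bp windows with a CTCF motif was 20.5% (19.5 to 21.4) in unclassed cohesin-bound peaks, 54.3% (53.5 to 55.1) in unclassified peaks without Rad21 and 72.9% (72.3 to 73.6) in other CAC sites. Windows 2 kb to either side of the regions held it at 4.16%. The difference from peaks without Rad21 was -33.8 percentage points (95% Newcombe interval -35.1 to -32.6), and that from other CAC sites was -52.4 (-53.6 to -51.3). Both were negative on 19 of 19 autosomes (adjusted p = 1.50e-05 each, exact two-sided sign-flip test over autosomes, Benjamini-Hochberg over 51 tests). The smallest p this test can give is 3.81e-06 before adjustment. Intervals here cover counting error only, and peaks are not replicates of a mouse.

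Rad21 peaks without CTCF were the class with still fewer motifs. Around Rad21 summits, the CTCF motif was found in 17.6% of unclassed cohesin-bound peaks and in 5.01% of distal Rad21 peaks without CTCF, a difference of 12.6 points (11.6 to 13.5) with the same sign on 19 of 19 autosomes (adjusted p = 1.50e-05, exact sign-flip test). The regions had been chosen for a CTCF peak and the other class for having none, so this test is not independent of the choice. In motif content the regions stood between Rad21 peaks without CTCF and the cohesin-free peaks and other CAC sites. Where a motif was present it was also weaker in the regions, with a median score of 13.6 against 15.6 in peaks without Rad21 and 16.4 in other CAC sites, a difference that was not tested.

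The low share was not confined to regions of the weakest CTCF signal. With 16 to under 24 CTCF fragments, 8.82% of cohesin-bound and 37.4% of cohesin-free unclassified peaks had a motif, and with 35 or more fragments 33.3% and 65.3% did. In the ranges between, the shares were 15.5% against 52.8% and 22.1% against 60.8%. The share was thus lower with Rad21 in each of the 4 ranges, given here as a description with no test.

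Motifs of liver regulators went the other way. The forkhead letters TGTTTAC were found in 4.03% of the regions, against 2.69% of unclassified peaks without Rad21 (adjusted p = 0.00151, 17 of 19 autosomes higher, exact sign-flip test). The C/EBP letters TTGCNNAA were found in 10.3% against 7.27% (adjusted p = 7.57e-05, exact sign-flip test), and the HNF4 letters AAAGTCCA in 2.02% against 0.901% (adjusted p = 3.43e-05, exact sign-flip test). AGGTCA, the core that nuclear receptors bind, was in 18.2% against 13%, a difference of 5.20 points (4.15 to 6.27) that was positive on 19 of 19 autosomes (adjusted p = 1.50e-05, exact sign-flip test). TTGGCA, the core bound by nuclear factor I (NF1) proteins, was in 15.6% against 9.58%, a difference of 6.0 points (5.03 to 7.00; adjusted p = 2.78e-05, exact sign-flip test). Both strands were searched, the motifs can overlap each other, and a match describes the letters and not binding.

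These 5 motifs were also more frequent than in other CAC sites, which held forkhead at 2.69%, C/EBP at 8.09%, HNF4 at 1.15%, the nuclear receptor core at 12.8% and the NF1 core at 10.4%. Their adjusted p ran from 1.50e-05 to 9.73e-04 (exact sign-flip test). In windows 2 kb away the same motifs were found at 2.91%, 7.65%, 0.951%, 12.7% and 10.04%. The cohesin-free peaks and the other CAC sites thus lay near the flanking level, and the cohesin-bound regions above it. In windows of 45 to 55% GC, a restriction chosen after seeing the data, all 5 were still more frequent than in either class. With only 50 bp on each side of the summit their differences from cohesin-free peaks fell to between 0.330 and 2.94 points and remained past the threshold.

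Against Rad21 peaks without CTCF the same motifs did not pass the test. Around Rad21 summits the nuclear receptor core was in 20.1% of the regions and 20.6% of those peaks, a difference of -0.498 points (-1.65 to 0.675). The C/EBP motif was in 11.8% and 12.4%, a difference of -0.570 (-1.50 to 0.383), and forkhead in 4.38% and 4.65%, a difference of -0.272 (-0.860 to 0.340). HNF4 was in 2.46% and 2.42%, a difference of 0.0452 (-0.391 to 0.508). The NF1 core was in 16.6% and 18.3%, a difference of -1.69 points (-2.77 to -0.587) that missed the threshold over autosomes (adjusted p = 0.0918, exact sign-flip test). It passed with Fisher's exact test over peaks (adjusted p = 0.00461), and also in 50 bp windows (-1.29 points), with a Rad21 score of at least 100 (-2.90) and with summits within 100 bp (-2.22). The last setting also brought C/EBP past the threshold, at -1.57 points. These intervals bound how far the shares could lie apart and do not show that they were equal.

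**Figure D2:**
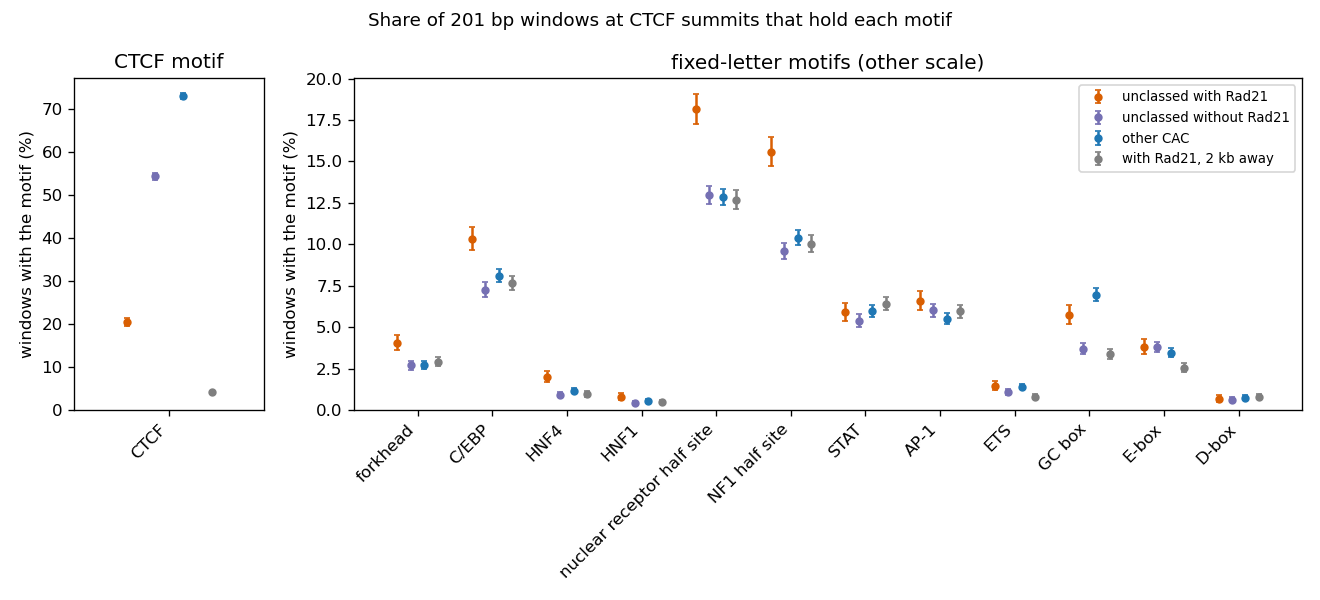
Share of 201 bp windows (%) with the CTCF motif (left) and with each of 12 fixed-letter motifs (right, on its own scale) in unclassed cohesin-bound peaks, unclassified peaks without Rad21, other CAC sites and windows 2 kb from the cohesin-bound peaks; points are shares and bars 95% Wilson intervals. The cohesin-bound peaks are lowest of the 3 peak classes for CTCF (20.5%) and highest for forkhead, C/EBP, HNF4, nuclear receptor and NF1 motifs, which passed the test against both other classes, and for HNF1, AP-1, ETS and the E-box, which did not pass it against both.

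The remaining motifs gave smaller or less stable differences. HNF1 (GTTAATNAT) was in 0.773% of the regions and 0.407% of cohesin-free peaks (adjusted p = 0.0132, exact sign-flip test), but this call was lost in windows of 45 to 55% GC, in 50 bp windows, with a Rad21 score of at least 100 and with summits within 100 bp. Against other CAC sites at 0.527% it missed the threshold (adjusted p = 0.0918, exact sign-flip test) and passed it in Fisher's exact test over peaks (adjusted p = 0.0442). Against Rad21 peaks without CTCF it was lower, at 0.730% against 0.951% around Rad21 summits (adjusted p = 0.0354, exact sign-flip test), and this call too was lost in 50 bp windows, in windows of 45 to 55% GC, with a Rad21 score of at least 100 and in Fisher's exact test over peaks. ETS (CCGGAAG) was in 1.46% against 1.07% of cohesin-free peaks (adjusted p = 0.0296, exact sign-flip test) and reversed to -0.0305 points in windows of 45 to 55% GC. This call was also lost with summits within 100 bp and over 1 kb from classified sites. The GC box (GGGCGG), a promoter element, was in 5.74% of the regions, above cohesin-free peaks at 3.69% and below other CAC sites at 6.96%, and neither call held in windows of 45 to 55% GC. The call against other CAC sites was also lost with a Rad21 score of at least 100 (-1.26 points, adjusted p = 0.0630, exact sign-flip test). Around Rad21 summits it was in 6.55% of the regions and 5.38% of Rad21 peaks without CTCF (adjusted p = 6.39e-04, exact sign-flip test), which was lost in windows of 45 to 55% GC and with a Rad21 score of at least 100. STAT (TTCNNNGAA), AP-1 (TGANTCA), the E-box CACGTG and the D-box TTATGTAA passed the test against none of the 3 classes. The nearest was AP-1 against other CAC sites, at 6.57% and 5.52% (adjusted p = 0.0545, exact sign-flip test), which passed in 50 bp windows, at 2.5 kb from starts and in Fisher's exact test over peaks. STAT passed against Rad21 peaks without CTCF with a Rad21 score of at least 100, at -1.42 points.

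Of the 6989 regions, 41.3% held at least 1 of the 6 liver motifs, compared with 28.8% of cohesin-free unclassified peaks, 30.8% of other CAC sites and 30.1% of the flanking windows. Around Rad21 summits it was 44.6% of the regions and 47.0% of Rad21 peaks without CTCF. Around CTCF summits 44.7% of the regions held neither a CTCF motif nor a liver motif. The flanking windows held these short motifs too, so a single match cannot be set apart from that background.

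Base composition differed most from that of cohesin-free peaks and least from that of Rad21 peaks without CTCF. GC content of the windows had a median of 50.7% (quartiles 46.3 and 54.7), against 47.3% in cohesin-free peaks (n = 6989 and 13770, Kolmogorov-Smirnov D = 0.230, adjusted p = 1.94e-213 over peaks, 19 of 19 autosomes higher). It was 48.8% in other CAC sites (n = 18012, D = 0.115, adjusted p = 1.04e-57, 19 of 19 autosomes higher), a difference in medians of 1.99 points that fell to 0 with 50 bp on each side of the summit. Around Rad21 summits it was 51.7% against 50.7% in Rad21 peaks without CTCF (n = 13246, D = 0.0631, adjusted p = 2.03e-15, 16 of 19 autosomes higher and 1 lower). Taken over autosomes, the adjusted p was 8.46e-06 against cohesin-free peaks and other CAC sites and 1.87e-04 against Rad21 peaks without CTCF (exact sign-flip test). Windows 2 kb away had a median of 45.3%. In windows of 45 to 55% GC the CTCF motif was still rarer than in cohesin-free peaks, by -32.1 points, so the CTCF motif difference was nearly as large among windows of like GC content.

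The regions also differed among themselves. The 1431 with a CTCF motif (719 on the forward and 712 on the reverse strand) had a median of 32 CTCF fragments, and the 5558 without had 28. Rad21 went the opposite way, with 29 fragments at regions with a motif and 36 at regions without. The ratio of Rad21 to CTCF fragments was 0.875 with and 1.28 without a motif, and it was lower with a motif on 19 of 19 autosomes. The summits were 45 bp apart with a motif and 82 bp without. The regions were chosen by called and overlapping peaks of both factors, so these values are a description and no test is given for them.

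Motif content followed the ratio of the factors. Ordered by Rad21 to CTCF ratio and divided into 4 equal parts, the regions held a CTCF motif at 43.2%, 21.1%, 10.4% and 7.21%, from the lowest ratios (median 0.750) to the highest (median 2.0). Any of the 6 liver motifs was found at 35.6%, 41.5%, 43.0% and 44.9% in the same parts. The CTCF motif rose with CTCF score, from 8.35% through 13.3% and 19.7% to 40.5%, and fell with Rad21 score, from 26.6% through 25% and 18.5% to 11.8%. The nuclear receptor core changed from 14.1% in the part of lowest ratio to 21.1% in the part of highest ratio, whereas forkhead was at 3.32% and 4.24% and HNF4 at 1.77% and 2.18%. These are descriptions of the regions, and the score and ratio share the same fragment counts.

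**Figure D3:**
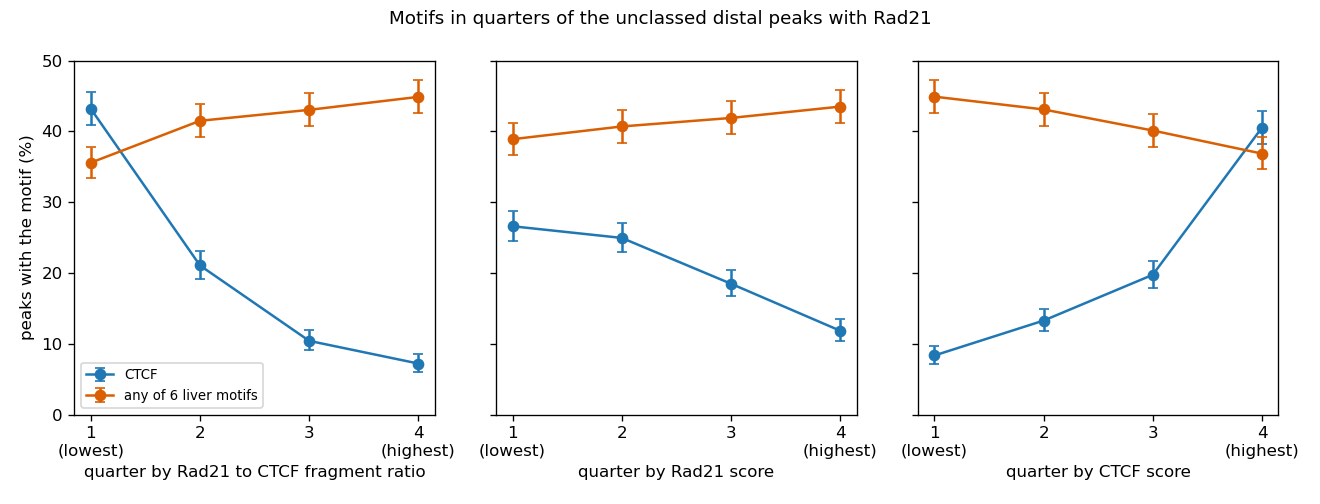
Share of unclassed cohesin-bound peaks (%) with a CTCF motif or with any of 6 liver motifs in 4 equal parts ordered by Rad21 to CTCF fragment ratio, by Rad21 score and by CTCF score; bars are 95% Wilson intervals. The CTCF motif falls from 43.2% to 7.21% with the ratio while the liver motifs go from 35.6% to 44.9%.

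In the median, the Rad21 summits were displaced toward the 3′ end of the motif. At the 1431 regions with a motif the Rad21 summit lay a median of 13 bp from the CTCF summit toward the 3′ end of the motif (quartiles -32 and 56), with a positive median on 17 of 19 autosomes (adjusted p = 1.17e-04, exact sign-flip test). At other CAC sites with a motif the median was 18 bp (quartiles -6 and 41). The median displacement was thus in the same direction at both, with lower quartiles on the other side. The spread was wider in the cohesin-bound unclassed peaks. The difference between the medians was not tested.

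In the genome, 3545 regions (50.7%, 49.6 to 51.9) had their summit in an intron of a protein-coding gene, 322 (4.61%) in an exon and 3122 (44.7%) between genes. The intron share was 55.6% in cohesin-free unclassified peaks, a difference of -4.88 points (-6.31 to -3.44; adjusted p = 9.89e-04, exact sign-flip test) that missed the threshold in windows of 45 to 55% GC (-3.81 points, adjusted p = 0.0869). It was 46.0% in other CAC sites, a difference of 4.71 points (3.33 to 6.09; adjusted p = 0.00132, exact sign-flip test) that missed it among regions with a Rad21 score of at least 100 (2.59 points, adjusted p = 0.0876). Counted at Rad21 summits, the intron share of the regions was 50.2%, against 51.1% in Rad21 peaks without CTCF. That difference was -0.929 points (-2.38 to 0.519; adjusted p = 0.441, exact sign-flip test). The median distance to the nearest protein-coding start was 25652 bp. Of the regions 23.8% lay 1 to 10 kb from a start, 46.1% lay 10 to 50 kb, 24.7% lay 50 to 200 kb and 5.37% lay farther.

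Rad21 peaks without CTCF were frequent neighbours. Within 10 kb of the CTCF summit 2826 regions (40.4%) had such a peak, compared with 22.9% of other CAC sites, a difference of 17.5 points (16.2 to 18.8) with the same sign on 19 of 19 autosomes (adjusted p = 1.50e-05, exact sign-flip test). With 5 kb in place of 10 kb the shares were 24.2% and 13%. Cohesin-free unclassified peaks had one within 10 kb at 27.2%, which was not tested.

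Classified CTCF sites were neighbours as well. Of the regions 563 (8.06%) lay within 1 kb of a classified site, compared with 4.34% of cohesin-free peaks, and 3765 (53.9%) within 10 kb, compared with 51.8%. At 238 regions (3.41%) the same Rad21 peak also covered a classified site. The Rad21 summit was nearer to the classified summit than to the unclassed one at 162 of these, with medians of 99.5 and 418 bp, and it held a median of 64 Rad21 fragments against 33 at the other regions. The number of regions per kb of distance was 816 between 0.5 and 1 kb, fell to 279 between 3 and 4 kb and 297 between 4 and 5 kb, and stepped up to 427 between 5 and 6 kb. The median local CTCF background stepped down at the same place, from 9.71 fragments between 4 and 5 kb to 7.18 between 5 and 6 kb. Cohesin-free peaks showed the same steps, from 615 to 864 per kb and from 9.30 to 6.30 fragments. The part of the background in the number of peaks was not tested.

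**Figure D4:**
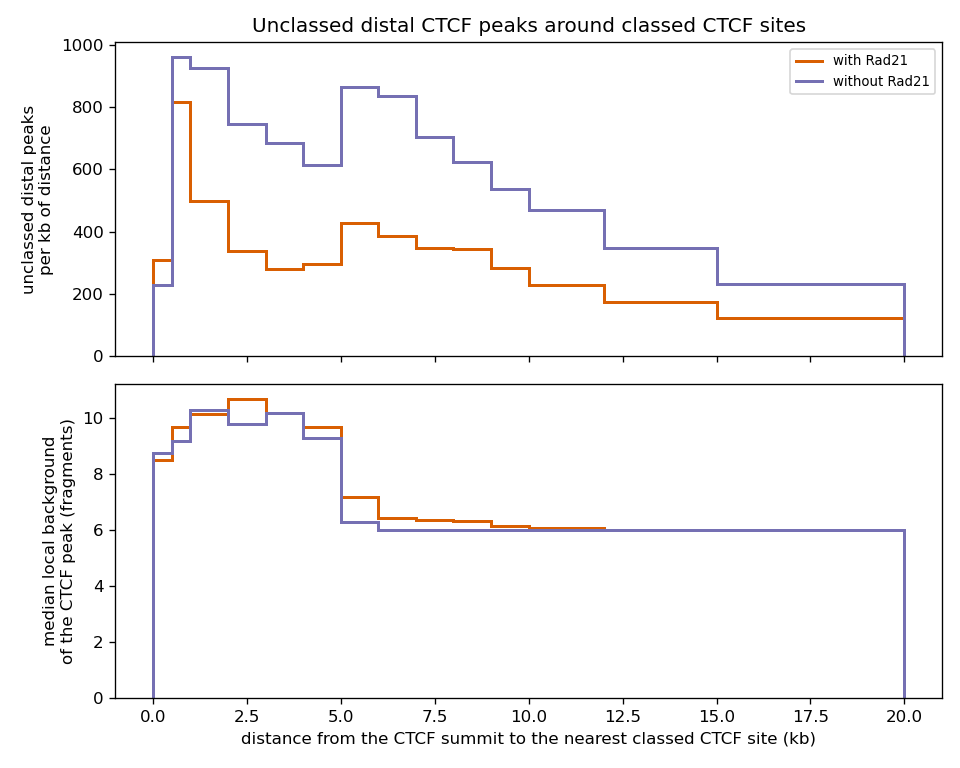
Unclassified distal CTCF peaks per kb of distance from the nearest classified CTCF site (top) and the median local background of those peaks in fragments (bottom), for peaks with and without Rad21, up to 20 kb. Both kinds step up in number at 5 kb (297 to 427 and 615 to 864 per kb), where the background steps down.

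The 8 regions of highest Rad21 score all lay beside a classified site under the same Rad21 peak. The first, chr9:48075224-48075489, 73534 bp from the start of Fam55b, had 573 Rad21 and 53 CTCF fragments, and its Rad21 summit lay 445 bp from its CTCF summit. The Rad21 summit was 15 bp from the classified summit. The second, chr7:151163839-151164265, was 23754 bp upstream of Shank2, a synaptic scaffold gene, with 333 Rad21 and 74 CTCF fragments. The other 6 were near Sox4 (301 and 65 fragments), Foxo1, a forkhead factor that acts on gluconeogenic genes (245 and 40), Gzmm (262 and 51), inside Sulf2 (296 and 45), near Nqo2 in an intron of Serpinb6a (222 and 50) and inside Vcl, the vinculin gene (268 and 33). A CTCF motif was found in the Nqo2 region and in none of the other 7. Those near Fam55b and Foxo1 and inside Vcl and Sulf2 also had the highest ratios of Rad21 to CTCF fragments, from 6.13 to 10.8, and the fifth, near Irf2bp2 (262 and 43 fragments, ratio 6.09), shared its Rad21 peak too.

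Away from classified sites the highest Rad21 scores were lower. Among regions over 1 kb from a classified site and with a Rad21 peak of their own, a restriction added after the values had been seen, the highest scores were 934 upstream of Igfbp2, 743 in Rbfox2, 736 upstream of Rreb1, 714 upstream of Slc9a3r2 and 713 near Plekha5. The sixth was near Atl2, at 693. The region near Tcf7l2, a transcription factor of Wnt signalling, was the seventh and scored 683 with 115 Rad21 and 34 CTCF fragments, and stood 47284 bp from the nearest classified site. Of these 7 regions those at Rbfox2 and Slc9a3r2 held a CTCF motif.

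The regions of highest CTCF score differed from those. The highest, at 539, was chr19:61342233-61342430, whose end was the last base of the chromosome, 38064 bp from the start of Csf2ra. It had 99 CTCF and 36 Rad21 fragments, no CTCF motif and a ratio of 0.364. The region inside Arid1b, a subunit of a chromatin remodelling complex, scored 462 with 73 CTCF and 21 Rad21 fragments and held a motif. The region in a coding exon of Cwc27 scored 384 with 62 CTCF and 35 Rad21 fragments and no motif. The region inside Lphn3 also scored 384 and had 62 CTCF and 25 Rad21 fragments and a motif. The region near Skint10 scored 354 with 59 CTCF and 35 Rad21 fragments and a motif of score 20.8, and it lay 657633 bp from any classified site. Each of these 5 had more CTCF than Rad21 fragments.

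Of 21275 autosomal protein-coding genes, 6184 (29.1%) had at least 1 of the regions within 50 kb of a start, and 4009 of them had exactly 1. Mical3, an actin-regulating oxidase, had the most, with 10 regions over 5 starts. Hdac4, a class II histone deacetylase, Osbpl1a, an oxysterol-binding protein, Rbfox2 and Sik3, a salt-inducible kinase, had 9 each. These genes had several starts that spanned 123 to 217 kb, so that more sequence was counted for them than for a gene with a single start. At Sik3 none of the 9 regions held a CTCF motif, and 19 Rad21 peaks without CTCF lay near the same starts. Regions up to 10 kb apart formed 848 runs of 2 or more that took in 1886 regions (27.0%). The largest was in Atp8b1, a canalicular lipid transporter, with 8 regions over 34.7 kb, of which 2 had a CTCF motif.

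Lists of hepatocyte genes were counted against this 29.1% of all genes. Hepatocyte transcription factors had 1 within 50 kb at 26 of 35 genes (74.3%, 57.9 to 85.8), lipid metabolism genes at 27 of 33 (81.8%, 65.6 to 91.4) and bile acid and transport genes at 15 of 21 (71.4%, 50.04 to 86.2). Amino acid and gluconeogenic enzymes had 1 at 18 of 28 (64.3%), plasma proteins at 32 of 56 (57.1%) and circadian clock genes at 9 of 18. Genes of other liver cell types had 1 at 7 of 29 (24.1%, 12.2 to 42.1), and neuronal genes, a list for a tissue absent from the samples, at 2 of 35 (5.71%, 1.58 to 18.6). Of the genes listed, 1 of 29 amino acid and gluconeogenic enzymes, 2 of 35 lipid genes and 1 of 19 clock genes had no autosomal entry and were left out. The lists were chosen with earlier results of these data known and no test was made on them.

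The other classes of peak gave other shares. Other CAC sites lay within 50 kb of 62.3% of all genes, 85.7% of hepatocyte transcription factors and 62.9% of neuronal genes. Cohesin-free unclassified peaks lay within 50 kb of 55.4%, 85.7% and 37.1% of them. Rad21 peaks without CTCF did so for 39.1% of all genes, 94.3% of hepatocyte transcription factors and 7 of 35 neuronal genes. Beside these stand the 29.1%, 74.3% and 5.71% of the unclassed cohesin-bound peaks. For lipid genes the regions stood at 81.8%, cohesin-free peaks at 97.0%, other CAC sites at 87.9% and Rad21 peaks without CTCF at 84.8%. Among all genes and in each of the 8 lists the regions had the lowest share of these classes. With 20 kb the shares of the regions were 14.2% of all genes, 54.3% of hepatocyte transcription factors and 0 of 35 neuronal genes.

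**Figure D5:**
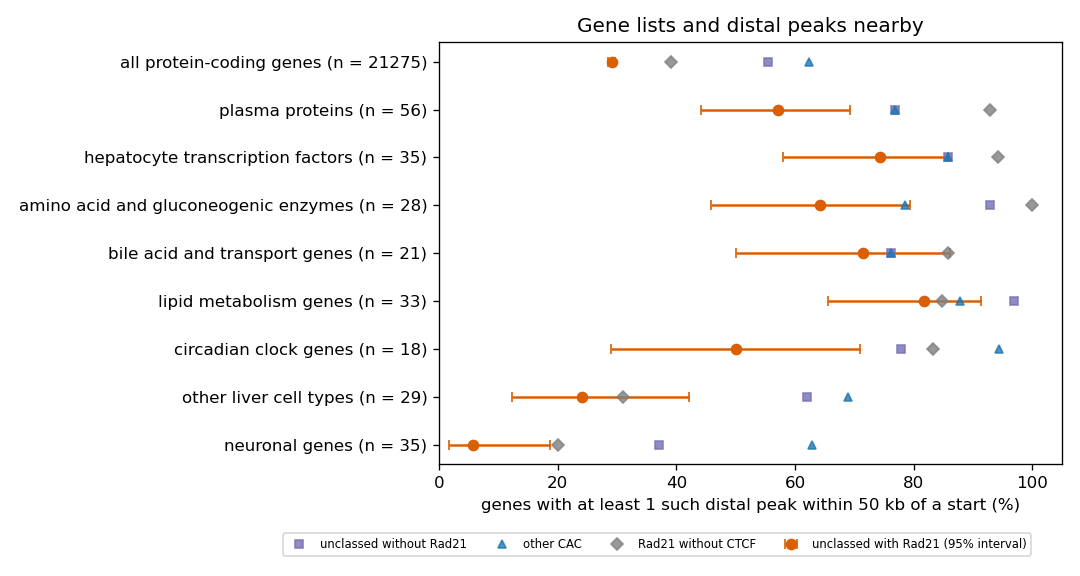
Share of genes (%) with at least 1 distal peak within 50 kb of a start, for all autosomal protein-coding genes and 8 gene lists (n in the labels), by class of peak; bars are 95% Wilson intervals for the unclassed cohesin-bound peaks. For those peaks 5 hepatocyte lists run from 57.1% to 81.8%, genes of other liver cell types stand at 24.1% and neuronal genes at 5.71%, beside 29.1% of all genes.

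Among lipid genes the strongest regions were near Elovl5, a fatty acid elongase with 8 regions (strongest with 115 Rad21 and 30 CTCF fragments, 7143 bp from a start), Fabp1, the liver fatty acid binding protein with 6 (66 and 29), and Fads1, a fatty acid desaturase with 3 (68 and 28). Among hepatocyte transcription factors they were near Nfia, a nuclear factor I gene with 8 regions, the strongest in its intron with forkhead and nuclear receptor letters (112 and 33), Nr1h4, the bile acid receptor gene (58 and 25), and Rxra, the common partner of nuclear receptors (68 and 39). None of these but the Fads1 region held a CTCF motif. For bile acid and transport genes they were near Slco1b2, a hepatic uptake transporter (81 and 23, with C/EBP and nuclear receptor letters), Cyp8b1, a hydroxylase of bile acid synthesis (54 and 27), and in an intron of Abcg5, a sterol exporter (62 and 47, with a CTCF motif), which lay within 50 kb of its neighbour Abcg8 as well.

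Among enzymes of amino acid and glucose metabolism the strongest were near Fbp1, a gluconeogenic phosphatase (86 Rad21 and 26 CTCF fragments), Cps1 of the urea cycle (59 and 27) and Bhmt, a homocysteine methyltransferase (58 and 31, with C/EBP and nuclear receptor letters). None of the 3 held a CTCF motif. For plasma proteins they were near Trf, the transferrin gene (80 and 31), Crp, the C-reactive protein gene (87 and 45), and Alb, the albumin gene (51 and 21), whose region lay 21616 bp from a start and held the HNF4 letters and no CTCF motif. Among clock genes they were inside Hlf (114 and 34) and Rora (61 and 26) and near Bhlhe41 (43 and 33), where the last held a CTCF motif. The 32 plasma protein genes had 43 regions within 50 kb, of which 3 (6.98%) had a CTCF motif, beside 1007 of the 4886 regions (20.6%) within 50 kb of any gene. The counts were 12 of 60 for lipid genes, 10 of 60 for hepatocyte transcription factors, 3 of 28 for bile acid and transport genes, 1 of 30 for amino acid and gluconeogenic enzymes, 5 of 15 for clock genes, 1 of 10 for other liver cell types and 0 of 3 for neuronal genes. These small counts were not tested.

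Other liver cell types had a region at 24.1% of their genes, beside the 29.1% of all genes. Stab1, a scavenger receptor of liver sinusoids, had a region with 103 Rad21 and 80 CTCF fragments 8571 bp from its start, Itgam, a myeloid integrin, one with 29 and 23, and Sox9, a bile duct factor, one with 27 and 26. The 2 neuronal genes with a region were Camk2b (39 and 27) and Eno2 (42 and 44, at 48791 bp). Fewer cells of a type and less binding per cell cannot be told apart in whole liver.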

How the data were processed

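Reads of the 4 CTCF libraries and of the 3 Rad21 libraries were merged by the authors before mapping to build mm9 with Bowtie2, and peaks were called with MACS2. Versions were not taken over here. The deposited score of a peak is its −log10 q-value times 10, the deposited fold is the ratio of summit fragments to a local background, both with 1 added, and the deposited −log10 p-value column belongs to the same count. From fold and p-value the fragments and background were recovered, whole within 0.02 at 99.996% of CTCF peaks and 99.997% of Rad21 peaks. The authors' list of 52436 classified sites was built from peaks they found in at least 2 livers, and all 52436 matched a peak of the pooled list. Depth per library is not given in these lists, and the number of fragments at each summit sets the precision.

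Starts (45974, of 22232 protein-coding genes) came from GENCODE vM1 on assembly NCBIM37, the same build. Windows reached 100 bp to each side of a summit. The CTCF motif matrix was learnt from the 2000 strongest domain anchors on odd autosomes, and at 15800 sites on even autosomes its strand was the deposited one at 98.8%. Shares were compared by an exact two-sided sign-flip test over the 19 autosomes and distributions by the Kolmogorov-Smirnov test over peaks, as in the study, with Benjamini-Hochberg adjustment over 51 tests and a threshold of 0.05. Over peaks, neighbouring regions are not independent. Named regions and genes were the 8 of highest Rad21 score, the 5 of highest CTCF score, the 5 of highest ratio with at least 20 CTCF fragments, the 5 genes with most regions, 3 genes per list by Rad21 score, and 2 peaks on each side of the 1 kb limit. The regions, lists and tests were chosen with earlier results of these data known. Scripts were tested on simulated data. Tests were run with SciPy 1.17.1 and NumPy 2.4.6, sequences read with pysam 0.24.0, tables handled with pandas 2.3.3 in Python 3.11.15, and plots drawn with Matplotlib 3.10.9.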

Additional observations from a re-analysis of the deposited data

How the results depend on the processing

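No paired analysis was possible because each peak list pools its libraries, and leaving out 1 replicate could not be run for the same reason. The number of regions was 4290 with summits within 100 bp, 4406 with a reciprocal overlap of 50% and 3369 with a Rad21 score of at least 100. Under the alternatives run on it (50 bp windows, a stricter motif limit, Fisher's exact test over peaks, 2.5 kb from starts, a Rad21 score of at least 100, summits within 100 bp, over 1 kb from classified sites and windows of 45 to 55% GC) the CTCF motif difference kept its direction and its call, from -39.2 to -22.0 points against cohesin-free peaks, from -58.8 to -38.2 against other CAC sites and from 5.36 to 19.6 against Rad21 peaks without CTCF. The motifs called against the last class were 3 of 13. They were 5 with summits within 100 bp and 1 in windows of 45 to 55% GC, a setting chosen after seeing the data. The limit on summit distance was applied to the regions and not to other CAC sites. With a Rad21 score of at least 100 the intron difference from other CAC sites was 2.59 and that from Rad21 peaks without CTCF was 0.953, and in windows of 45 to 55% GC that from cohesin-free peaks was -3.81. The causes of these changes were not tested.

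Gene shares within 20 and 100 kb were 14.2% and 45.3% for all genes, 35.7% and 71.4% for plasma proteins and 10.3% and 44.8% for other liver cell types. Within 20 kb they were 54.3% for hepatocyte transcription factors, 51.5% for lipid genes, 22.2% for clock genes and 0 for neuronal genes.

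Of 252 values for single motifs other than CTCF, 204 kept their direction and call, 15 lost and 10 gained a call and 23 changed sign, of which only ETS against cohesin-free peaks (-0.0305 in windows of 45 to 55% GC) had been called. Against cohesin-free peaks the E-box was -0.310 in 50 bp windows, -0.0241 at 2.5 kb from starts, -0.0608 over 1 kb from classified sites and -0.468 in windows of 45 to 55% GC, and the D-box -0.0112 at 2.5 kb and -0.0309 with a Rad21 score of at least 100. Against other CAC sites STAT was 0.163, the E-box -0.00793 and the D-box 0.0212 in 50 bp windows, the D-box 0.0573 in windows of 45 to 55% GC and ETS -0.0116 with summits within 100 bp. Against Rad21 peaks without CTCF, HNF4 was -0.104 in 50 bp windows, -0.291 with a Rad21 score of at least 100, -0.341 with summits within 100 bp and -0.0226 in windows of 45 to 55% GC. There the E-box was 0.0526 in 50 bp windows, 0.0110 with summits within 100 bp, 0.00749 over 1 kb from classified sites and 0.0690 in windows of 45 to 55% GC, AP-1 was 0.142 in 50 bp windows, and C/EBP was 0.773 and ETS -0.000318 in windows of 45 to 55% GC. All are percentage points.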
